A study of Mus musculus with 11 samples.

Results

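The 10 genes described here are the transcription factor gene Atf4 and 9 of its known targets in amino acid metabolism and stress, Asns, Psat1, Phgdh, Psph, Shmt2, Mthfd2, Trib3, Chac1 and Sesn2. They were taken as a named set because this axis is a known output of the growth-regulating kinase complex mTORC1, and the rule itself uses no measured value. All 10 were among the 22196 genes quantified, and all 10 were among the 12716 genes with enough reads to be tested. RNA was measured in the inguinal mammary gland of mice with Tsc1 deleted in fat cells, in 6 knockout and 5 wild-type libraries. Tsc1 encodes a subunit of the complex that restrains mTORC1. Knockout mice had the genotype Tsc1-fl/fl; Adipoq-Cre-Tg/+ and wild-type mice Tsc1-fl/fl; Adipoq-Cre-+/+, so both groups carried the floxed Tsc1 alleles and only the knockout carried the Cre transgene. Adipoq is a gene of adipocytes, so the recombination was directed to fat cells, while the RNA came from the whole gland. All glands carried the same age label, PND16.5, were collected 16 days after delivery per the labels' protocol, and came from animals given milk and normal chow; whether this and the age label describe dams or pups is not stated. Lactation is not stated as such. Samples are labelled as separate, with no litter, batch or animal number, so p-values measure the spread between these samples.

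ATF4 is a basic leucine zipper factor that cells produce when amino acids are short or when the integrated stress response phosphorylates the translation factor eIF2. Much of its control is at translation, so the level of Atf4 mRNA need not follow the level of the protein, and its target genes are read as its output. mTORC1 also raises ATF4 output, and through it the enzymes that make serine, asparagine and folate-bound carbon units. A lactating gland exports large amounts of amino acids in milk protein, so its secretory cells have a high demand for them.

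ATF4 binds composite C/EBP-ATF response elements, whose core TGATGNAA was searched on both strands of the promoter windows that RefSeq gives for GRCm38.p6, from 250 bases before to 50 bases after each gene start. The core was present in 1304 of 32851 promoters (3.97%) and in 3 of the 10 genes (Asns, Chac1 and Trib3), over 11 windows since Psat1 has a pair of them. The sequences are shown because they are the stretches of these genes that carry the recognition core. Each is 30 bases long, read 5′ to 3′ on the strand that holds the core, with the core in capitals.
Asns: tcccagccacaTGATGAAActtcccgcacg
Chac1: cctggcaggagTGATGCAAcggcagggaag
Trib3: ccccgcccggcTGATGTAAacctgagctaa
The Asns stretch lies at chr6:7693214-7693243 on the strand of the gene. Its core begins 23 bases before the start that RefSeq gives, base 7693209 (position -23), and so lies inside the outermost M21 bounds of the gene given below. The Chac1 stretch lies at chr2:119351038-119351067 on the strand opposite to the gene, with the core at -193 from the RefSeq start, base 119351242. The Trib3 stretch lies at chr2:152344028-152344057, also on the opposite strand, with the core at position 15 counted from the RefSeq start, base 152344060, which lies outside the M21 bounds given below. No match was found in these windows for the other 7 genes, which says only that these letters are not in them. Binding was not measured. The core was also present in 5 of the 7 cytosolic tRNA synthetase genes with a listed promoter (Aars, Gars, Iars, Tars and Yars) and in 9 of 26 other known ATF4 targets. It was present in 1 of 12 stress response regulators and 1 of 13 unfolded protein response genes, and in 0 of 19 other serine and folate genes, 0 of 9 paralogs and 0 of 16 amino acid sensing genes.

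The libraries held between 25817975 and 37894237 estimated reads. Levels are in CPM, a gene's reads relative to the library total, adjusted between libraries by TMM. Tsc1 itself ranged from 8.31 to 11.9 CPM among the knockout and from 9.55 to 12.2 CPM among the wild-type libraries, and its log2 fold change was -0.09 ± 0.11 (SE, adjusted p = 0.772, edgeR). The whole gland also holds cells in which Adipoq-Cre does not act, and what they add to the Tsc1 reads was not tested. Milk protein genes took 50.7% to 59.3% of the reads of a knockout library and 56.7% to 63.0% of those of a wild-type library, and all 8 milk secretory markers were detected, as were all 10 adipocyte markers. The summed adipocyte markers ranged from 1450 to 1943 CPM among the knockout and from 1043 to 1479 CPM among the wild-type libraries (exact permutation p = 0.00649, 0.0844 after adjustment over 13 library measures, two-sided). Of the 10 adipocyte markers 8 were fitted higher and 2 lower in knockout, with 0 past the threshold. All 8 milk secretory markers were fitted lower in knockout in edgeR, with no single one past the threshold (exact permutation p of the sum 0.0584, adjusted 0.190). The summed B cell markers ranged from 1.03 to 15.6 CPM among the knockout and from 2.21 to 82.9 CPM among the wild-type libraries (exact permutation p = 0.0216, adjusted 0.141). Those of lymph node stroma ranged from 1.67 to 5.57 CPM and from 1.37 to 33.7 CPM (exact permutation p = 0.0476, adjusted 0.190). Fitted higher in knockout were 5 of 6 luminal, 6 of 6 myoepithelial and 6 of 6 fibroblast markers (adjusted exact permutation p of the sums 0.277, 0.281 and 0.391). In whole tissue, fewer cells of a type and less RNA per cell cannot be told apart.

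No gene of the ATF4 axis passed the threshold between genotypes. Of the 10 genes, 3 were fitted higher and 7 lower in knockout, 0 passed an adjusted p of 0.05 in edgeR's quasi-likelihood test or in DESeq2, and 0 had an unadjusted p under 0.05. Over all tested genes, 7 of 12716 (0.055%) passed in edgeR, 6 of them higher (0.0472%) and 1 lower (0.00786%) in knockout, and 135 of 14107 (0.957%) in DESeq2, while 12.4% had an unadjusted p under 0.05 in edgeR and 51.7% were fitted lower in knockout. Relative to the median gene 7 of the 10 were lower as well, against 5 on log2(TPM + 1) and 6 on log2(TPM + 0.1). Those scales moved the median of all genes upward. The count was 6 in limma-voom, in both fits with transcript lengths and on the authors' table. With 1 library left out it ran from 5 (without wild-type library 2) to 9 (without knockout library 3). The median log2 fold change of the 10 genes was -0.10, against -0.01 over all tested genes. It was 0.023 without wild-type library 2, -0.20 without wild-type library 4, and -0.044 without knockout library 1 or 4, so its direction and size depended on single libraries. It was -0.043 in limma-voom and -0.056 on the authors' table, and 0.15 and 0.17 on the TPM scales, where the median of all genes was 0.14 and 0.21. Adjusted p-values of the 10 genes ran from 0.432 to 0.989 in edgeR. In none of the 10 did the knockout and wild-type libraries separate without overlap, a pattern found in 1.32% of all tested genes. Over the 95% intervals of the 10 genes, the lowest bound was 0.450-fold (Mthfd2) and the highest 2.34-fold (Psat1). Data were simulated at the spread and depth of this comparison over 12716 genes, with changes placed only in genes averaging above 5 CPM. Of these changed genes edgeR recovered 53% of those changed 1.5-fold and 94% of those changed 2-fold, with 6 false calls. Psph, Mthfd2 and Chac1 averaged below that level, so these shares do not describe them. The shares are over all changed genes, and Psat1 varied more within a genotype than most tested genes.

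**Figure D1:**
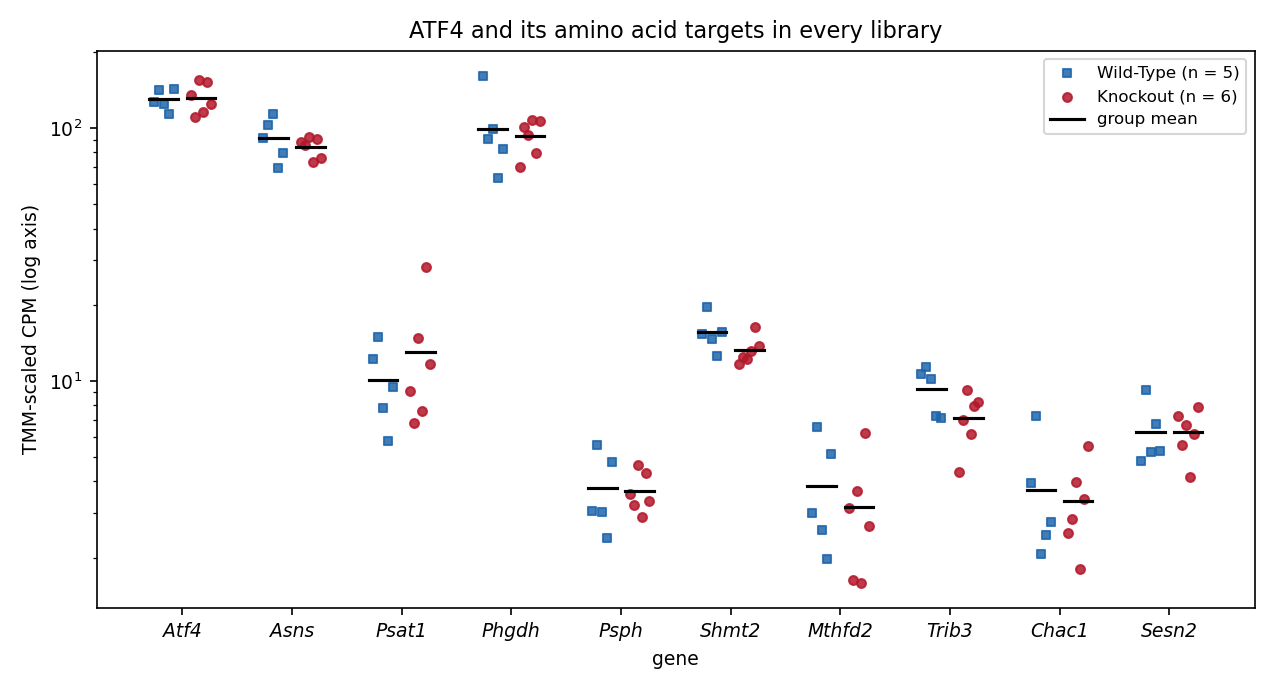
TMM-scaled CPM (log axis) of the 10 genes in each library, with wild-type libraries as squares, knockout libraries as circles and group means as bars. The points of both genotypes overlap for every gene, and Psat1 in knockout library 5 sits apart at 28.2 CPM.

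Atf4 itself (chromosome 15, 80255184 to 80257541, plus strand, GRCm38 as for all positions here) varied least. Its level was 110 CPM at the lowest, 130 at the median and 155 at the highest of the 6 knockout libraries, and 127, 141, 125, 114 and 142 CPM in wild-type libraries 1 to 5. The ranges overlap almost entirely, and the highest library was only 1.41 times the lowest. The knockout mean was 132 ± 18.5 CPM (SD, n = 6) and the wild-type mean 130 ± 11.9 CPM (SD, n = 5), with a log2 fold change of 0.02 ± 0.10 (SE, 95% interval -0.20 to 0.24, edgeR adjusted p = 0.951). Its 3230 to 6061 reads per library made counting error small.

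The serine synthesis pathway turns a glycolytic intermediate into serine through 3 enzymes, Phgdh, Psat1 and Psph, in that order. Phgdh (chromosome 3, 98313170 to 98339990, minus strand), the first and committed enzyme, had 69.9 CPM at the lowest, 97.4 at the median and 107 at the highest of the knockout libraries. In wild-type libraries 1 to 5 it had 160, 90.7, 99.5, 63.1 and 82.8 CPM. Both the highest and the lowest library were wild-type, so the knockout libraries lay inside the wild-type range. Between genotypes the log2 fold change was -0.09 ± 0.21 (SE, 95% interval -0.55 to 0.36, edgeR adjusted p = 0.883), and it was 0.15 without wild-type library 1. Reads of Phgdh are uncertain for another reason: 83.8% of the 31-base words of its counted coding sequence also occur in transcripts of 23 other annotated genes, 22 of them pseudogenes, and 0 of these 23 were in the deposited tables. A read from such a copy could be assigned to Phgdh. The share of the reads that this touches was not tested.

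Psat1 (chromosome 19, 15904678 to 15947337, minus strand), the transaminase of the second step, had the widest range of the 10 from lowest to highest library. Its knockout libraries 1 to 6 had 9.10, 6.82, 14.8, 7.61, 28.2 and 11.7 CPM and its wild-type libraries 1 to 5 had 12.2, 15.0, 7.79, 5.77 and 9.44 CPM. Knockout library 5 was the highest of all, at 4.89 times wild-type library 4, and the other 5 knockout libraries lay within the wild-type range. The means were 13.03 ± 7.98 CPM (SD, n = 6) and 10.04 ± 3.62 CPM (SD, n = 5), with a log2 fold change of 0.38 ± 0.39 (SE, 95% interval -0.47 to 1.23, edgeR adjusted p = 0.724). Without knockout library 5 the log2 fold change was 0.0044. Of the words of the Psat1 coding sequence, 8.12% are shared with 1 pseudogene.

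Psph (chromosome 5, 129765558 to 129787449, minus strand), the phosphatase that releases serine, had 79 to 161 reads per library over a short coding sequence. It had 2.89, 3.47 and 4.66 CPM at the lowest, median and highest of the knockout libraries, and 3.05, 5.56, 3.02, 2.40 and 4.77 CPM in wild-type libraries 1 to 5. The wild-type values extended both below and above the knockout values. Its fitted log2 fold change was -0.03 ± 0.22 (SE, 95% interval -0.50 to 0.44, edgeR adjusted p = 0.972).

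The mitochondrial enzymes that pass the carbon of serine to folate were both fitted lower in knockout without passing the threshold. Shmt2 (chromosome 10, 127517123 to 127522444, minus strand) splits serine into glycine and a folate-bound carbon unit. It had 11.7, 12.8 and 16.4 CPM at the lowest, median and highest of the knockout libraries and 15.3, 19.6, 14.6, 12.5 and 15.6 CPM in wild-type libraries 1 to 5. Of the 6 knockout libraries, 3 lay below the lowest wild-type library, and knockout library 5 lay above all wild-type libraries but the second. The log2 fold change was -0.23 ± 0.12 (SE, 95% interval -0.48 to 0.03), with an unadjusted p of 0.0748 and an edgeR adjusted p of 0.456. Without wild-type library 2 it was -0.13. Of the words of its coding sequence, 7.53% are shared with 1 pseudogene.

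Mthfd2 (chromosome 6, 83305691 to 83325908, minus strand) oxidises the folate-bound unit in the next step. It had 1.59, 2.90 and 6.24 CPM at the lowest, median and highest of the knockout libraries and 3.01, 6.56, 2.58, 1.97 and 5.12 CPM in wild-type libraries 1 to 5. Within each genotype the libraries differed by over 3-fold, which is wider than the difference between the means. The log2 fold change was -0.28 ± 0.40 (SE, 95% interval -1.15 to 0.59, edgeR adjusted p = 0.808). It was -0.0084 without wild-type library 2 and -0.58 without knockout library 5, so that single libraries set its size.

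Asns (chromosome 6, 7675169 to 7693254, minus strand), which makes asparagine from aspartate with glutamine as the nitrogen donor, had a within-genotype spread below that of the median gene. It had 73.1, 86.8 and 92.0 CPM at the lowest, median and highest of the knockout libraries and 90.8, 102, 113, 69.6 and 79.6 CPM in wild-type libraries 1 to 5. All knockout values lay inside the wild-type range. The log2 fold change was -0.11 ± 0.12 (SE, 95% interval -0.37 to 0.14, edgeR adjusted p = 0.729), and it was -0.023 without wild-type library 3 and -0.19 without wild-type library 4.

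Trib3, Chac1 and Sesn2 are stress targets. Trib3 (chromosome 2, 152337422 to 152344032, minus strand) encodes a pseudokinase that feeds back on ATF4 and on insulin signalling. Its knockout libraries 1 to 6 had 4.35, 7.03, 9.18, 6.16, 7.97 and 8.22 CPM and its wild-type libraries 1 to 5 had 10.7, 11.3, 10.2, 7.29 and 7.12 CPM. Wild-type libraries 1 to 3 were above every knockout library, and the other two wild-type libraries fell among them. The means were 7.15 ± 1.72 CPM (SD, n = 6) and 9.31 ± 1.96 CPM (SD, n = 5). The log2 fold change of -0.38 ± 0.19 (SE, 95% interval -0.79 to 0.03) had the smallest p of the 10 genes, 0.0640 unadjusted and 0.432 adjusted in edgeR.

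Chac1 (chromosome 2, 119351229 to 119354381, plus strand), whose product degrades glutathione, had 1.80, 3.12 and 5.52 CPM at the lowest, median and highest of the knockout libraries. In wild-type libraries 1 to 5 it had 3.96, 7.23, 2.07, 2.46 and 2.77 CPM. Wild-type library 2 was the highest and the remaining wild-type libraries fell within the knockout range. Its fitted log2 fold change was -0.14 ± 0.35 (SE, 95% interval -0.90 to 0.62, edgeR adjusted p = 0.901), and it was 0.25 without wild-type library 2.

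Sesn2 (chromosome 4, 132492032 to 132510501, minus strand) encodes a leucine sensor that holds back mTORC1 when leucine is low. It had 4.15, 6.42 and 7.91 CPM at the lowest, median and highest of the knockout libraries and 4.83, 9.19, 5.25, 6.74 and 5.30 CPM in wild-type libraries 1 to 5. Apart from the lowest knockout and the second wild-type library the ranges overlapped, and the means were 6.29 ± 1.33 CPM (SD, n = 6) and 6.26 ± 1.79 CPM (SD, n = 5). Between genotypes the log2 fold change was 0.01 ± 0.19 (SE, 95% interval -0.41 to 0.43, edgeR adjusted p = 0.989).

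**Figure D2:**
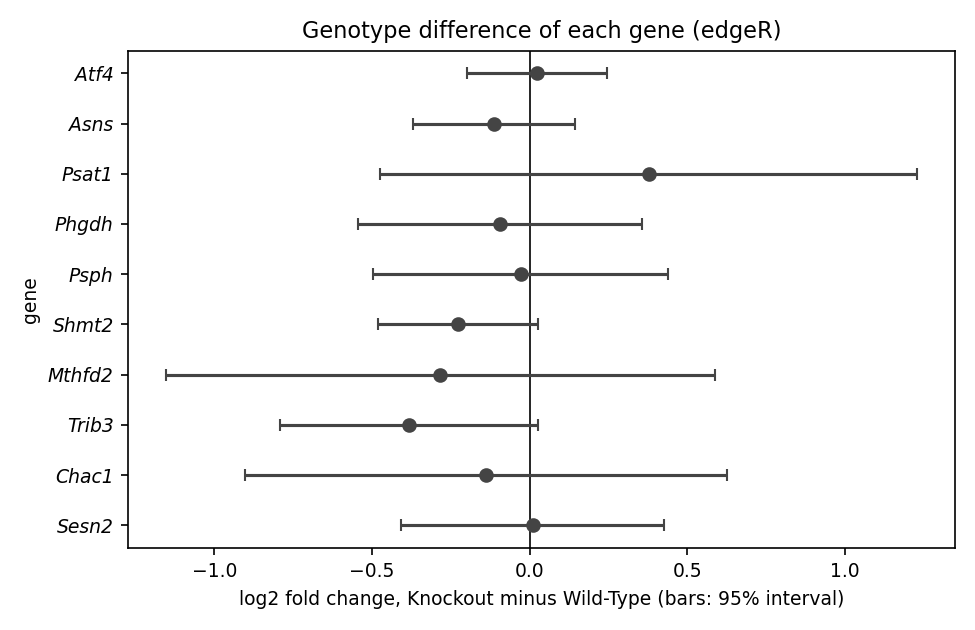
Fitted log2 fold change of each gene, knockout minus wild-type (point), with its 95% interval (bar) derived from the edgeR fit. Every interval includes 0, and the intervals of Psat1 and Mthfd2 are the widest.

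The genes differed in how much they varied within a genotype. The within-genotype SD of log2 CPM of Mthfd2, Psat1 and Chac1 lay at percentiles 93.9, 92.8 and 91.6 of all tested genes. Psph, Phgdh, Trib3 and Sesn2 lay between percentiles 71.6 and 76.0, and Asns, Shmt2 and Atf4 at 43.9, 41.3 and 32.3. A mitochondrial folate enzyme and the middle enzyme of serine synthesis were thus the most variable of the set, and the factor itself was the steadiest.

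By length-corrected level, in TPM averaged over the 11 libraries, the order was Atf4 (109), Phgdh (24.3), Asns (22.7), Psph (8.27), Psat1 (4.95), Shmt2 (3.86), Trib3 (3.50), Chac1 (3.19), Sesn2 (1.87) and Mthfd2 (1.59). Atf4 was above Phgdh, Asns above Psph and Chac1 above Sesn2 in all 11 libraries. The other neighbours changed places in at least 1 library, with Phgdh and Asns exchanged in 5, Psat1 and Shmt2 in 5, and Psph and Psat1 in 1. The place of Psph rests on a listed fragment of 181 bases, which had at most 10.1 reads in any library yet took 47.6% of the gene's TPM on average. With all reads set against the length of the most read transcript, a scale added after seeing the data, Psph moved from rank 4 to rank 6. A fragment of 349 bases likewise took 48.8% of the TPM of Atf4, which stayed at rank 1 on that scale. Between the first steps of serine synthesis, the length-corrected level of Phgdh exceeded that of Psat1 in all libraries, by 1.69 times in knockout library 5 and 8.92 times in knockout library 2.

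Across libraries the closest relations were among Atf4, Psat1, Psph and Mthfd2. Of the 45 combinations of 2 genes, 41 had a positive Pearson correlation of log2 CPM over the 11 libraries. Their median r was 0.42, against -0.0013 over all combinations of tested genes, of which 49.9% were positive. After adjustment over the 45 combinations, 5 passed the threshold by permutation of Pearson's r, and all 5 joined 2 of the genes Atf4, Psat1, Psph and Mthfd2.

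Atf4 and Mthfd2 had the closest relation, with r = 0.88 (permutation p = 0.00051, adjusted 0.0223) and rho = 0.88 (p = 0.00069, adjusted 0.0175). Without the 2 libraries farthest from the median of Atf4, knockout libraries 3 and 5, r was 0.95. Mthfd2 had a much wider range than Atf4, 4.12 times from lowest to highest library against 1.41 times. Psph and Mthfd2 had r = 0.86 (permutation p = 0.00104, adjusted 0.0223) and rho = 0.88 (p = 0.00078, adjusted 0.0175), with r = 0.75 without wild-type libraries 2 and 5. Atf4 and Psat1 had r = 0.81 (permutation p = 0.00198, adjusted 0.0223) and rho = 0.83 (p = 0.00294, adjusted 0.0331), with r = 0.72 without the same libraries as above for Atf4. Psat1 and Mthfd2 had r = 0.79 (permutation p = 0.00269, adjusted 0.0242) and rho = 0.85 (p = 0.00122, adjusted 0.0183), with r = 0.72 without knockout library 5 and wild-type library 4. These 4 combinations passed by both measures. Atf4 and Psph passed by r = 0.83 (permutation p = 0.00198, adjusted 0.0223) but not by rho = 0.78 (p = 0.00624, adjusted 0.0562), and had r = 0.82 without the 2 farthest libraries. The sixth combination of these genes, Psat1 and Psph, did not pass (r = 0.67, permutation p = 0.0218, adjusted 0.123, and rho = 0.74, p = 0.0123, adjusted 0.0793), with r = 0.65 without knockout library 5 and wild-type library 4. The labels name no batch within which these relations could be computed again. With each genotype's mean subtracted, all 5 passed again, joined by Psat1 and Shmt2 (r = 0.78, permutation p = 0.00438, adjusted 0.0328). Without the subtraction Psat1 and Shmt2 had r = 0.54 (permutation p = 0.0879, adjusted 0.247), and 0.43 without knockout library 5 and wild-type library 4.

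**Figure D3:**
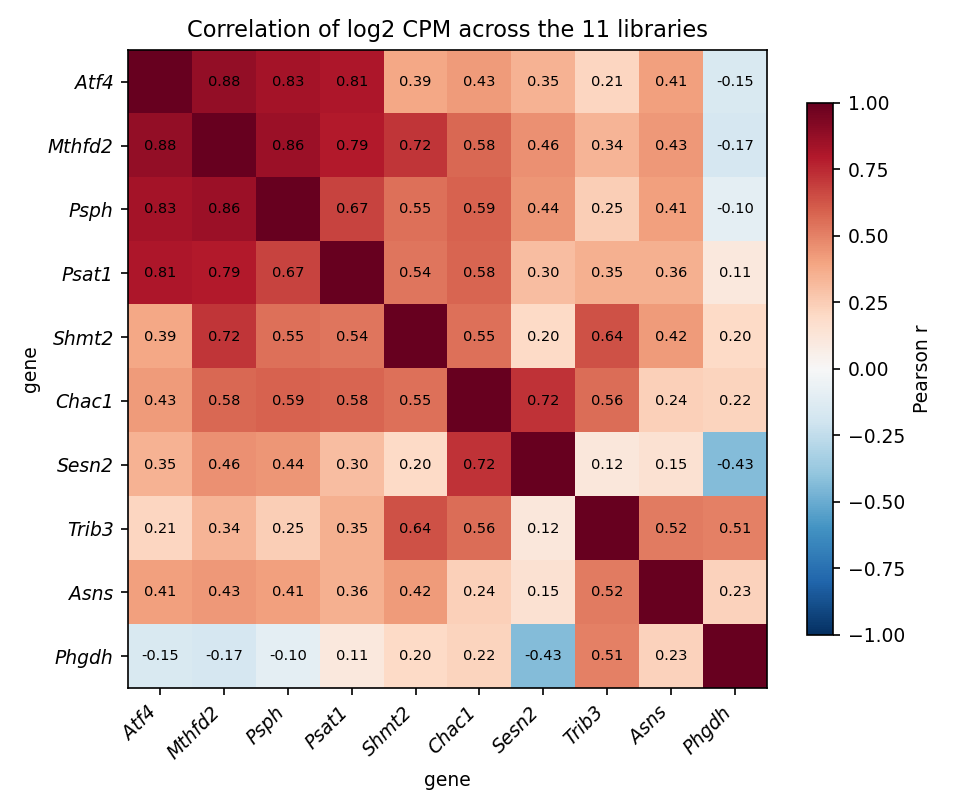
Pearson r of log2 CPM across the 11 libraries for every combination of the 10 genes, from -1 (blue) to 1 (red). Atf4, Mthfd2, Psph and Psat1 form the dark block at the upper left, and the row of Phgdh is near 0 or below 0 against them.

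Phgdh starts the same pathway and had no passing combination, as was also so for Asns, Shmt2, Trib3, Chac1 and Sesn2 on these values. The r of Phgdh was 0.11 with Psat1, -0.10 with Psph, -0.17 with Mthfd2, -0.15 with Atf4 and -0.43 with Sesn2. It was 0.51 with Trib3, 0.23 with Asns, 0.22 with Chac1 and 0.20 with Shmt2. Within knockout and wild-type libraries apart, the r of Phgdh was -0.37 and 0.60 with Psat1 and -0.68 and 0.50 with Asns. It was -0.63 and 0.09 with Mthfd2, -0.55 and 0.19 with Atf4 and -0.46 and 0.02 with Psph. With Trib3 (0.53 and 0.67), Chac1 (0.12 and 0.27), Shmt2 (0.0007 and 0.30) and Sesn2 (-0.39 and -0.47) the signs were the same. Whether these values differ from those of the other genes was not tested. Knockout library 5, the highest for Psat1, had 79.6 CPM of Phgdh, below the knockout mean of 93.0. Wild-type library 1, the highest for Phgdh, had 12.2 CPM of Psat1. Wild-type library 4 was the lowest for both. The sequence that Phgdh shares with its pseudogene copies, given above, bears on the same reads, and its part in this was not tested. Chac1 and Sesn2 had r = 0.72 (permutation p = 0.0128, adjusted 0.0820), with rho = 0.57 (p = 0.0713, adjusted 0.231), and r fell to 0.33 without knockout library 6 and wild-type library 2.

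**Figure D4:**
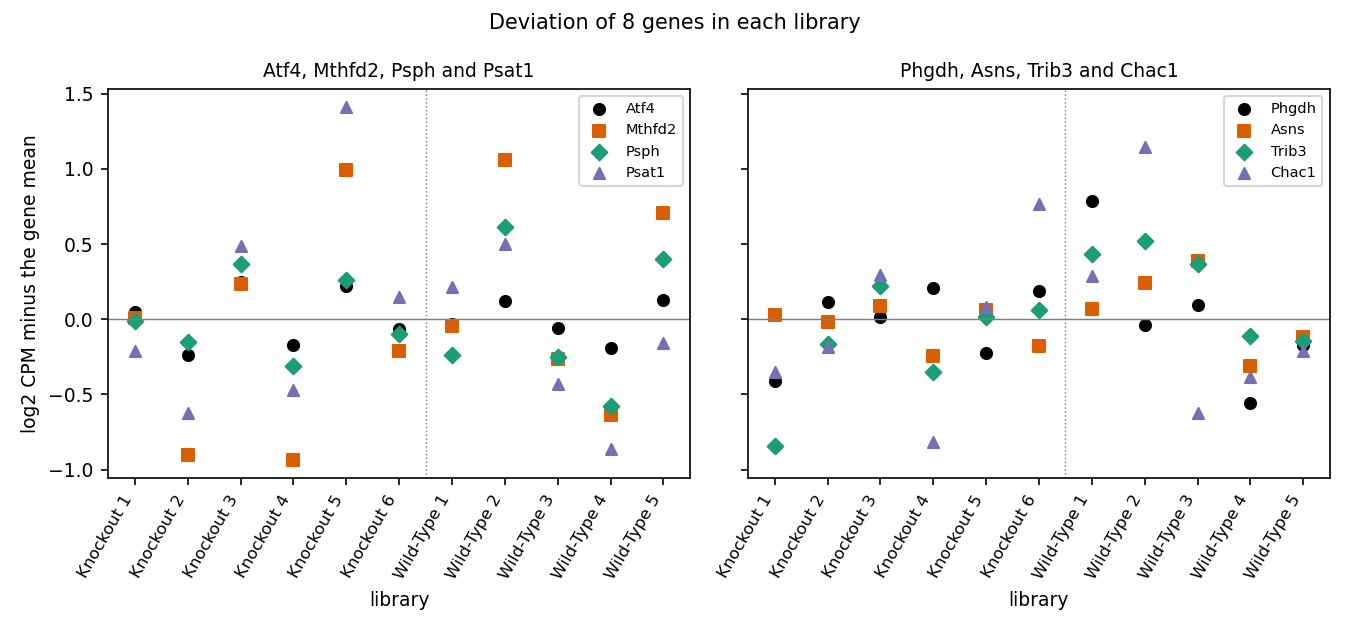
log2 CPM of 8 of the genes in each library after subtraction of the gene's mean over the 11 libraries. At left Atf4, Mthfd2, Psph and Psat1 are high together in knockout libraries 3 and 5 and in wild-type library 2 and low together in knockout libraries 2 and 4 and wild-type library 4. At right Chac1, Trib3 and Asns are likewise high in wild-type library 2 and low in knockout library 4, while Phgdh is highest in wild-type library 1.

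The common movement ran within each genotype. Wild-type library 2 was among the 2 highest libraries for 8 of the 10 genes, all but Atf4 and Phgdh, and knockout library 5 for 4 of them (Atf4, Psat1, Shmt2 and Mthfd2). Knockout library 4 was among the 2 lowest for 6 genes and wild-type library 4 for 5. Against the mean of their own genotype, 9 of the 10 genes were above it in knockout libraries 3 and 5 and in wild-type library 2, and 1 of the 10 in knockout library 4 and wild-type library 4. Wild-type library 2 had 60.6% of its reads in milk protein genes and the lowest sum of luminal epithelial markers, 462 CPM. Its B cell, T cell and lymph node stroma sums were 62.1, 12.6 and 23.1 CPM, second to wild-type library 5 in each. Wild-type library 4 had 56.7% of reads in milk protein genes, 845 CPM of luminal markers, the highest of its group, and 18.4 CPM of B cell markers. Of 120 relations between the 10 genes and 12 marker sums, none passed after adjustment, and the strongest by Pearson's r was Trib3 with the milk secretory sum (r = 0.82, permutation p = 0.00255, adjusted 0.306, and rho = 0.67, p = 0.0284, adjusted 0.766), which became r = 0.64 without knockout library 1 and wild-type library 2. By rho it was Trib3 with the fibroblast sum (rho = -0.76, permutation p = 0.00875, adjusted 0.658, and r = -0.62, p = 0.0415, adjusted 0.631), with r = -0.47 without the same 2 libraries.

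Genes outside the set were ranked by their correlation with the mean profile of the 10 genes, each genotype's mean subtracted, as a description over 11 libraries that share depth and scaling. The 5 most alike were 1110008P14Rik (r = 0.95), the methionyl-tRNA synthetase gene Mars (0.93), Jmjd8 (0.93), Lamtor1 (0.92), a subunit of the lysosomal platform that recruits mTORC1, and the tyrosyl-tRNA synthetase gene Yars (0.92). Cytosolic tRNA synthetases charge amino acids onto tRNA and include known ATF4 targets. All 12 of the list had a positive r, with a median of 0.80, and 7 of 12 were above 0.7 (Mars, Yars, Nars, Aars, Tars, Gars and Cars). Over all 12706 tested genes outside the set, 2.60% were above 0.7 and the median r was -0.0091. The other known ATF4 targets had 0 of 29 above 0.7 and a median of 0.16. Of the remaining serine and folate genes, Mthfd1 (0.88), Amt (0.75) and Aldh1l1 (0.74) were among those above 0.7, and the median of the 24 tested was 0.43. The methionine synthase gene Mtr had r = -0.73. The counts above 0.7 were 2 of 16 for regulators of the integrated stress response (Eif2b5 and Eif2s2), 1 of 18 for amino acid sensing genes (Rraga), 1 of 11 for paralogs (Mthfd1) and 0 of 16 for the unfolded protein response.

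Between genotypes, the rest of the pathway gave no call in edgeR either. Other known ATF4 targets were tested for 29 of 32 genes (Adm2, Fgf21 and Slc7a11 had too few reads). Of the 29, 9 were fitted higher and 20 lower, 0 passed and 4 had an unadjusted p under 0.05, with a median log2 fold change of -0.08. Stc2, which encodes the secreted glycoprotein stanniocalcin 2, had the smallest p. The knockout libraries averaged 22.0 ± 3.29 CPM (SD, n = 6), from 16.7 to 26.1, and the wild-type libraries 15.2 ± 1.43 CPM (SD, n = 5), from 13.5 to 17.2. The groups overlapped only at their edges. Its log2 fold change was 0.53 ± 0.11 (SE), with an adjusted p of 0.137 in edgeR and 0.00317 in DESeq2, so that the call depended on the test. It passed in 3 of the 25 settings, both DESeq2 fits and edgeR without knockout library 2 (adjusted p = 0.0232). The other 10 omissions of a library gave edgeR adjusted p-values of 0.148 to 0.321, limma-voom gave 0.184 and the replicate block 0.565. Pycr1, an enzyme of proline synthesis, had -0.58 (edgeR adjusted p = 0.370), and the lipoprotein receptor gene Vldlr had 0.22 (edgeR adjusted p = 0.377). Over the 25 settings Pycr1 ran from -0.69 to -0.29 and Vldlr from 0.069 to 0.33.

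The 12 tRNA synthetases had 5 genes fitted higher and 7 lower, 0 with an unadjusted p under 0.05 and a median of -0.01. Their smallest p-values were those of Cars (log2 fold change -0.23, edgeR adjusted p = 0.415), Lars (0.17, 0.619) and Gars (-0.10, 0.668). The 16 regulators of the integrated stress response were the eIF2 kinases, the eIF2 and eIF2B subunits, the phosphatase regulators, Gcn1l1 and Impact. They had 10 higher and 6 lower, 0 with an unadjusted p under 0.05 and a median of 0.01. Impact, an inhibitor of the kinase GCN2, had 0.34 (edgeR adjusted p = 0.403), Eif2s3x 0.15 (0.426) and Eif2b5 -0.14 (0.501).

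Of the other serine and folate genes 24 of 26 were tested (Ftcd and Sds had too few reads), with 10 higher, 14 lower, 0 past the threshold, 5 with an unadjusted p under 0.05 and a median of -0.07. Ahcy, which hydrolyses S-adenosylhomocysteine, averaged 11.2 CPM over the knockout and 18.5 CPM over the wild-type libraries (log2 fold change -0.72, edgeR adjusted p = 0.313). Mat2a, which makes S-adenosylmethionine, had 0.29 (0.341), and Mthfd1l, the mitochondrial formate-releasing enzyme, had -1.02 (0.379) at 0.746 against 1.54 CPM. Paralogs of the 10 genes had 3 higher and 8 lower of 11, 3 with an unadjusted p under 0.05 (Asnsd1 with -0.22 and an edgeR adjusted p of 0.274, Mthfd1l, and the cytosolic Shmt1 with -0.27 and 0.396) and a median of -0.17. The lists share genes, so their counts are not separate. Mthfd1l is counted among other ATF4 targets, serine and folate genes and paralogs, and Shmt1 among serine and folate genes and paralogs. Over all tested genes 12.4% had an unadjusted p under 0.05 in edgeR.

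Amino acid sensing genes upstream of mTORC1 had 4 higher and 14 lower of 18, 1 with an unadjusted p under 0.05 and a median of -0.10. Wdr24 of the GATOR2 complex had -0.20 (edgeR adjusted p = 0.396), Bmt2 0.25 (0.457) and the arginine sensor gene Castor1 -0.35 (0.491). Unfolded protein response genes of the endoplasmic reticulum had 5 higher and 11 lower of 16, 1 with an unadjusted p under 0.05 and a median of -0.06. Sel1l had 0.16 (edgeR adjusted p = 0.390), Herpud1 -0.32 (0.407) and Atf6 0.26 (0.438). On the TPM scales all 7 list medians were above 0, the paralogs at 0.098 and 0.14, where the median of all genes was 0.14 and 0.21. Cars, Gars, Eif2b5, Shmt1, Asnsd1 and Wdr24 had fitted values above 0 on the TPM scales, but relative to the median gene 0 of the genes named from these lists turned in any of the settings. The log2 fold change of Mthfd1l, with few reads, ran from -1.26 to -0.095 over the settings. Single libraries also moved the list medians. With 1 library left out they ran from -0.15 (without wild-type library 5) to 0.0041 (without wild-type library 1) for other ATF4 targets, from -0.13 (without wild-type library 4) to -0.020 (without wild-type library 2) for serine and folate genes, and from -0.17 (without wild-type library 4) to 0.020 (without wild-type library 5) for the unfolded protein response. The medians of the synthetases (-0.078 to 0.027) and of the stress response regulators (-0.028 to 0.058) fell on both sides of 0, and those of the paralogs (-0.21 to -0.13) and of the amino acid sensing genes (-0.12 to -0.080) stayed below it. In none of these lists did a gene separate the genotypes without overlap.

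**Figure D5:**
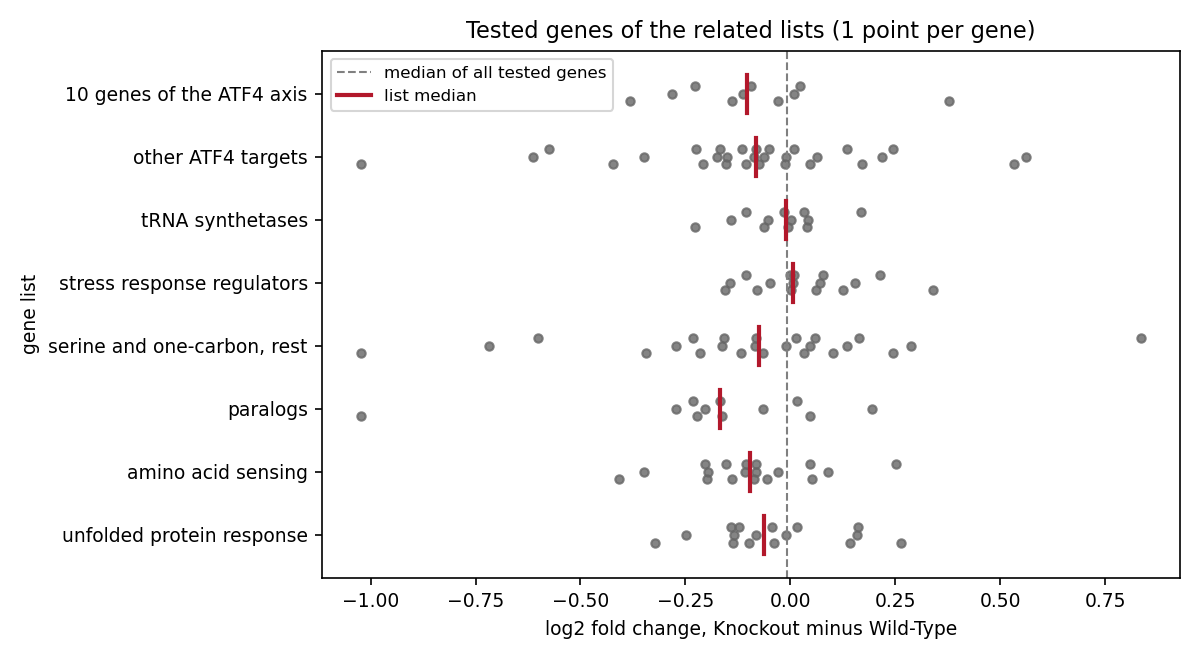
Fitted log2 fold change, knockout minus wild-type, of every tested gene (points) in the set of 10 and in 7 related lists, with list medians (red) and the median of all tested genes (dashed). List medians lie between -0.17 (paralogs) and 0.01 (stress response regulators).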

How the data were processed

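RNA-seq libraries of the inguinal mammary gland, 6 knockout and 5 wild-type, were grouped by their titles. Salmon 1.3.0, DESeq2 1.28.1 and the build GRCm38.p6 are named in the submitters' processing notes; index and counting options are not given in the sources used here. Per the file headers, the deposited transcript tables hold lengths, effective lengths (used as a signal of bases per transcript), TPM and estimated counts. The authors' gene table holds a normalized signal, used only as an alternative. All 23 listed transcripts of the 10 genes have a length within 3 bases of their coding length, so untranslated regions appear not to have been counted.

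Estimated counts were summed per gene with the GENCODE M21 annotation of GRCm38 and rounded to whole numbers. Of 58204 transcripts, 752 were unmatched, with 0.195% to 0.265% of reads, and left out. edgeR 4.0.16 (R 4.3.3; TMM, filterByExpr, robust quasi-likelihood F test, genotype as the only term) tested 12716 genes with Benjamini-Hochberg adjustment over all of them and a threshold of 0.05 on the adjusted p. The common biological coefficient of variation was 24.1%. Fits were checked on simulated counts. Alternatives used DESeq2 1.42.0, limma 3.58.1, other scalings, filters and units, a replicate block and the omission of each library. Correlations used log2 CPM with a prior count of 2 and 100000 permutations, two-sided, and library measures all 462 splits. The labels name no molecular identifiers.

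The genes and lists were chosen with earlier results of these data known. Named are the 10 genes, the 3 genes of each list with the smallest p in edgeR, the 5 genes most alike to the mean profile, and Tsc1; other genes named for their likeness were chosen after their values were seen, as was the level of 0.7. Words of 31 bases of the coding sequence of the listed transcripts were compared with all other M21 transcripts. A result that names an item withheld from the text is not reported here.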

Additional observations from a re-analysis of the deposited data

Results flagged for a closer look

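In 84 sets of values of 1 gene or 1 marker sum in 1 genotype, 9 had a library that lay far from its nearest neighbour relative to the range of its group (Dixon's criterion), where chance would give about 4.2. Psat1 had 28.2 CPM in knockout library 5, against 14.8 in the next library. The same library was apart for Impact, with 5.07 CPM against 3.75, and for Eif2s3x, with 41.5 CPM against 36.9. Ahcy had 20.0 CPM in knockout library 2, against 10.5 in the next knockout library, and 10.4 CPM in wild-type library 5, against 18.7 in the next wild-type library. The luminal epithelial marker sum was 845 CPM in wild-type library 4, against 566 in the next. Knockout library 1 was apart for the marker sums of B cells (15.6 CPM against 3.16), T cells (6.42 against 3.07) and skeletal muscle (2040 against 162). None of the relations between the 10 genes and these sums over all 11 libraries passed after adjustment. Knockout library 1 had the lowest Trib3 and Shmt2 of the 11 libraries.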

How the results depend on the processing

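No gene of the set passed the threshold in any of the 25 settings run, 14 with all libraries and 11 that left out 1 each. The lowest adjusted p was 0.267 (Shmt2, without wild-type library 4), and 0.351 with all libraries (Atf4, log2(TPM + 0.1)). The number of genes past the threshold, 7 in edgeR, was 135 in DESeq2, 137 in DESeq2 with transcript length factors (added after seeing the data), 3 with limma on log2(TPM + 1), 4 with log2(TPM + 0.1) and 0 with a replicate block, and 0 to 28 when 1 library was left out (0 without knockout library 3 or 6, 28 without knockout library 2). TPM moved the median of all genes by 0.15 (+ 1) and 0.22 (+ 0.1). On these scales the log2 fold change turned for Asns (0.13 and 0.14), Phgdh (0.18 and 0.19), Psph (0.43 and 0.50), Shmt2 (0.013 and 0.017) and Chac1 (0.10 and 0.14). Against the median gene on those scales (0.14 and 0.21), Asns, Shmt2 and Chac1 were lower on both, Phgdh was higher with + 1 and lower with + 0.1, and Psph was higher on both. Psph also turned with limma-voom (0.041), length offsets (0.17), the authors' table (0.28), DESeq2 with length factors (0.17) and the replicate block (0.042), and Sesn2 with the block (-0.053). Leaving out 1 library gave ranges of -0.028 to 0.075 for Atf4, -0.22 to 0.15 for Phgdh, -0.15 to 0.15 for Psph, -0.33 to 0.25 for Chac1 and -0.070 to 0.18 for Sesn2. The cause was not tested. Psat1, Mthfd2 and Trib3 kept their direction in all 25 settings. Same-numbered libraries had correlations of -0.02, -0.10, 0.19, -0.22 and -0.21 of their deviations from the group means. Only 1 of 5 knockout libraries and 0 of 5 wild-type libraries correlated best with their own number. These values show no pairing by number, but so few of them cannot exclude a weak one, and the labels do not state any. With lowest counts of 48, 60 and 79 reads in a library, Mthfd2, Chac1 and Psph carry the largest counting error.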
